A study of Mus musculus with 18 samples.

Results

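The lipid droplet and lipolysis genes described here are 10 mouse genes that an adipocyte uses to coat, fill and empty its fat droplet: Plin1, Plin4, Cidec, Fabp4, Cd36, Lpl, Acsl1, Pnpla2, Lipe and Mgll. They were chosen by symbol, with earlier results of these data known. Counts of the 10 set beside shares of all features therefore describe the set and do not test it. Every non-control probe whose accession maps to one of those symbols was taken, which gave 10 of the 22911 symbols and 15 of the 56605 probes on the array. Where a gene had several probes, the brightest stood for it. All 10 were among the 18028 symbols, and the 33469 features in all, that were well above background on at least 3 arrays and so were tested.

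White fat stores triglyceride in a large droplet whose surface is coated by perilipin 1 (Plin1), with perilipin 4 (Plin4) on small nascent droplets and CIDEC (Cidec) at the contacts where droplets exchange lipid and grow. Fatty acids reach the cell when lipoprotein lipase (Lpl) cleaves circulating triglyceride, pass the membrane with the help of CD36 (Cd36), are carried in the cytosol by FABP4 (Fabp4) and are activated to acyl-CoA by ACSL1 (Acsl1). Adipose triglyceride lipase (Pnpla2), hormone-sensitive lipase (Lipe) and monoacylglycerol lipase (Mgll) then remove the fatty acids from the glycerol backbone in sequence when the droplet is emptied. Several of these genes are also used outside fat: Lpl, Cd36 and Fabp4 by macrophages or capillary endothelium, and Pnpla2, Mgll and Acsl1 by many tissues.

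The study measured RNA on 18 single-colour expression arrays of female mice, 3 arrays in each of 6 groups, every array holding a pool of RNA from 3 animals, so 9 animals a group. The mice labelled ERBOE overexpress oestrogen receptor beta, and the controls labelled PRCre are PRCre/+ mice, in which Cre recombinase is expressed from the progesterone receptor gene. Uterus came from ERBOE and PRCre mice at 12 weeks of age, at estrus and without surgery. For the ectopic lesions, a 2 mm punch of endometrium from an ERBOE or PRCre mouse was implanted into a wild-type C57BL/6J host, donor and host being 8 weeks old, and the lesion was taken at estrus 4 weeks later; only the graft carried the genotype, and the host was intact. For the eutopic endometrium the arrangement was turned round: ERBOE or PRCre hosts, 8 weeks old, received a wild-type punch, and their own endometrium was collected at estrus 4 weeks after surgery. Lesion and eutopic pools of a genotype therefore came from different animals, and a lesion can hold cells of the wild-type host. The sources used here do not name the site of implantation. For ERBOE lesions and ERBOE eutopic endometrium, the tissue description reads as if the mice had no endometriosis, against the titles and the design text, and the titles were followed.

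Each value below is a level on the log2 scale after the array's own 75th percentile was subtracted, so 0 is the level of that percentile and 1 unit is a 2-fold change. The 75th percentile signal was 237 on PRCre uterus replicate 1 and 451 to 740 on the other 17 arrays, and 53.2% to 73.0% of probes were well above background by the scanner's own flag; the number of arrays limits the precision. Replicates are pools of different animals, and p-values measure the spread between pools. Esr2, the gene of oestrogen receptor beta, differed between ERBOE and PRCre by -0.24 ± 0.20 (limma standard error) in uterus, 0.01 ± 0.20 in eutopic endometrium and -0.25 ± 0.20 in lesions; the position of its probe on the overexpressed transcript was not known, so it checks no label.

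The 10 genes each had their highest group mean in ERBOE lesions and their next highest in PRCre lesions. In the comparison of lesions with eutopic endometrium in ERBOE, 8 of the 10 rose at an adjusted p under 0.05 (limma, Benjamini-Hochberg over all 33469 features), against 0.615% of all features, and all 10 had lesion arrays entirely above the eutopic arrays, against 7.16% of all features that did so in that direction; 39.1% of all features were above 0. The same comparison in PRCre gave 10 of 10 differences above 0, where 41.7% of all features were above 0, but none of the 10 passed the threshold. The steepest rises in ERBOE lesions were those of Fabp4 (236-fold), Cidec (214-fold) and Plin1 (83.6-fold). These folds are loose: leaving out 1 array gave log2 differences from 6.63 to 9.41 for Fabp4, 6.71 to 9.50 for Cidec and 5.49 to 7.37 for Plin1, and normexp background correction gave 4.64 for Plin1, which was well above background on 2 of the 3 eutopic arrays. The smallest differences were those of Pnpla2 and Mgll, which did not pass. In 5 of the 10 genes, Plin1, Plin4, Cidec, Fabp4 and Acsl1, the 6 lesion arrays read above all 12 other arrays, and in all 10 the 3 ERBOE lesion arrays did. The share of all features with either order was not computed, so these counts only describe the 10 genes.

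**Figure D1:**
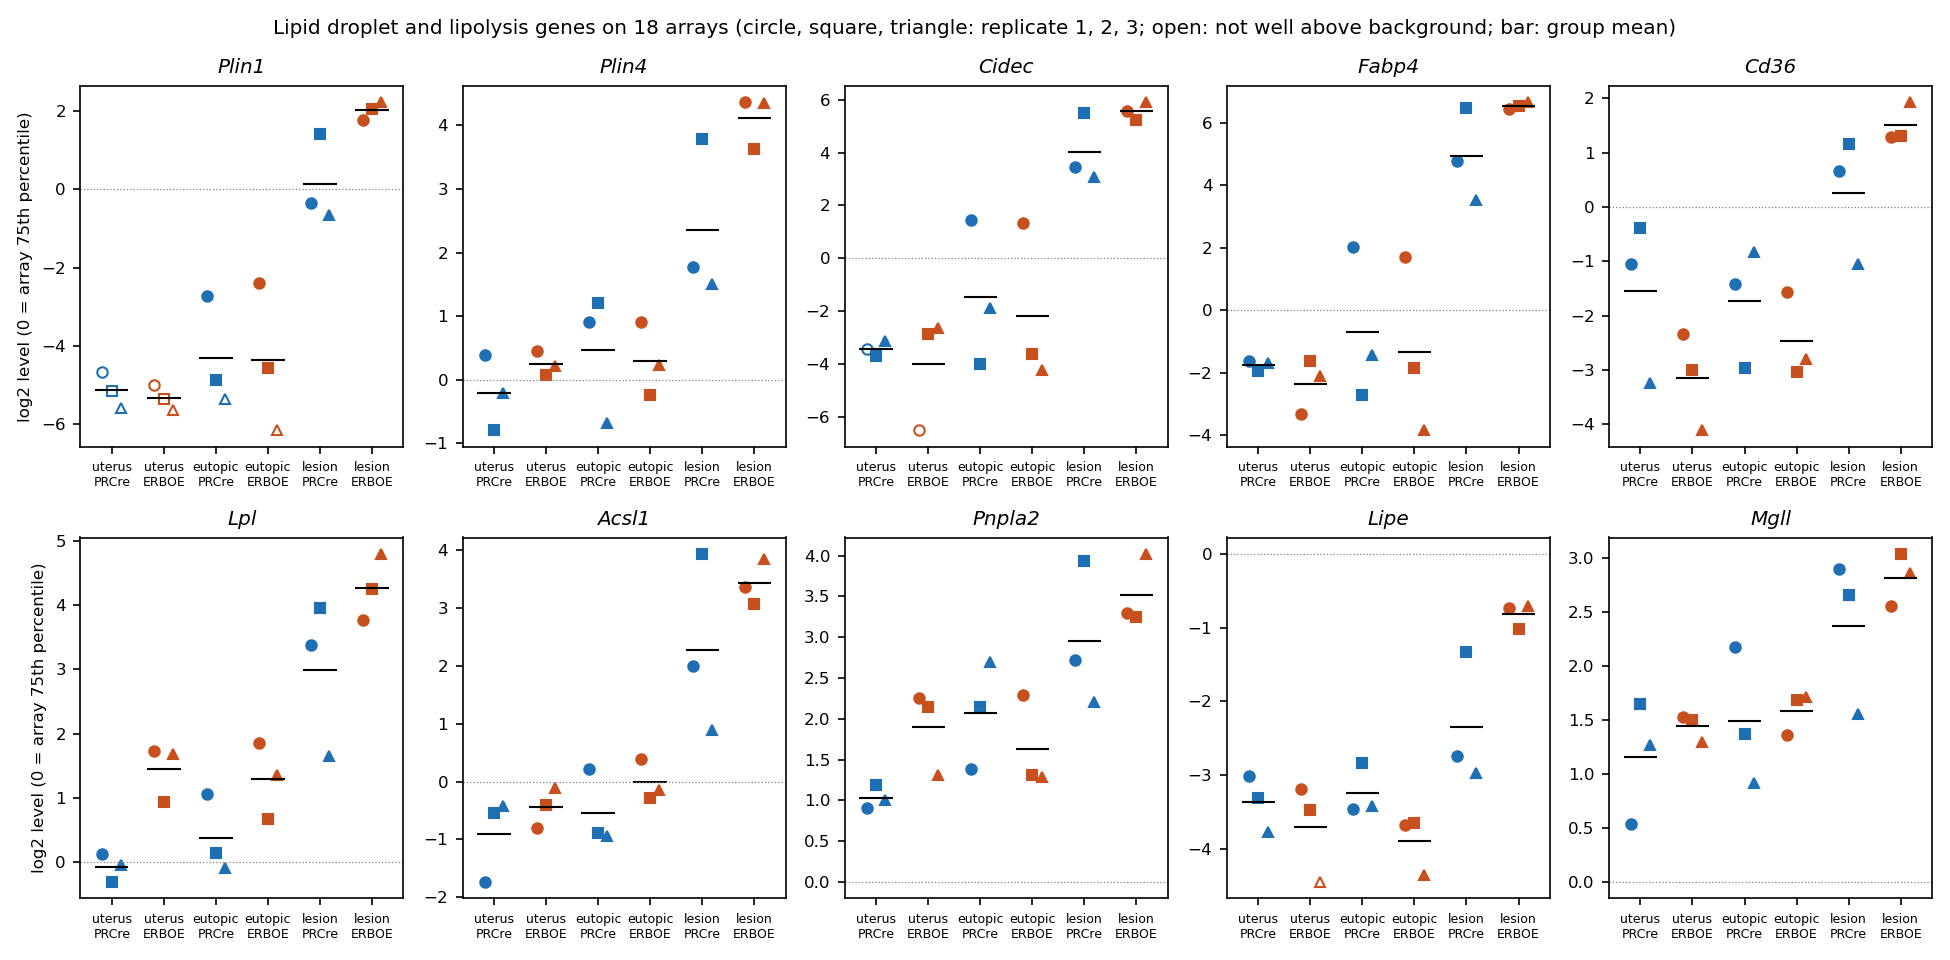
Level of each of the 10 genes on every array (y axis, log2 units relative to the array's 75th percentile; x axis, group; blue PRCre, orange ERBOE; circle, square and triangle for replicates 1, 2 and 3; open symbols not well above background; bar, group mean of 3 arrays). The ERBOE lesion mean is the highest in each panel; the PRCre lesion arrays spread more widely and overlap them for 7 genes, with PRCre replicate 2 the highest of its group for 9 genes, and replicate 1 of both eutopic groups stands above the other eutopic arrays for Plin1, Cidec and Fabp4.

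Among the droplet coat genes, Plin1 read 1.77, 2.06 and 2.22 on the 3 ERBOE lesion arrays and -0.35, 1.40 and -0.67 on the PRCre lesion arrays (replicates 1, 2 and 3, here and below). It read -2.40, -4.55 and -6.16 in ERBOE eutopic endometrium and -2.71, -4.87 and -5.36 in PRCre eutopic endometrium, and the last array of each set was not well above background. In uterus it was not well above background on any of the 6 arrays, with group means of -5.33 ± 0.32 (SD, n = 3) in ERBOE and -5.13 ± 0.47 in PRCre. The RNA of this coat gene was thus at the limit of detection in uterus and well above background on every lesion array. The lesion minus eutopic difference was 6.39 ± 0.82 in ERBOE (adjusted p = 0.0029) and 4.44 ± 0.82 in PRCre (adjusted p = 0.133).

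Cidec, which drives the growth of large droplets, had the widest range of the 10 genes, 12.4 log2 units between its lowest and highest array. It read 5.57, 5.22 and 5.90 in ERBOE lesions and 3.44, 5.50 and 3.09 in PRCre lesions. Eutopic endometrium gave 1.34, -3.64 and -4.24 in ERBOE and 1.46, -4.02 and -1.88 in PRCre. In both eutopic groups replicate 1 read far above the other pools, although still below every lesion array. The uterus means were -4.0 ± 2.18 in ERBOE and -3.43 ± 0.28 in PRCre, with 2 of 3 arrays well above background in each. The lesion minus eutopic difference was 7.74 ± 1.48 in ERBOE (adjusted p = 0.0270) and 5.49 ± 1.48 in PRCre (adjusted p = 0.569).

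Plin4 was measured on all 18 arrays and had a smaller range. ERBOE lesions read 4.36, 3.63 and 4.35, and PRCre lesions 1.76, 3.79 and 1.51. Eutopic endometrium read 0.91, -0.25 and 0.23 in ERBOE and 0.90, 1.20 and -0.68 in PRCre, and the uterus means were 0.24 ± 0.19 and -0.21 ± 0.59. The groups other than lesions overlapped, and replicate 1 of the eutopic groups did not stand apart for this gene. Plin4 rose in ERBOE lesions by 3.82 ± 0.58 (adjusted p = 0.0076), and the PRCre difference was 1.88 ± 0.58 (adjusted p = 0.790).

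The start sites of the members that moved together were read for a C/EBP-type motif and for the direct repeat bound by PPARG with RXRA, the response elements of the main adipogenic regulators, in the 250 bases before each RefSeq start (build GRCm38.p6). Windows were listed for 8 of the 10 genes, 12 windows in all; Fabp4 and Lpl had none in the table used. Below are the parts of these windows that lie before the annotated gene for Cidec and Plin1, genes with very large lesion differences, and for Pnpla2, a gene with a small one. All are 5′ to 3′ on the gene's strand, and capitals mark matches to the loose C/EBP motif TTNCNNAA on either strand (TTNNGNAA on the other).
Cidec, minus strand, chr6:113435761-113436010: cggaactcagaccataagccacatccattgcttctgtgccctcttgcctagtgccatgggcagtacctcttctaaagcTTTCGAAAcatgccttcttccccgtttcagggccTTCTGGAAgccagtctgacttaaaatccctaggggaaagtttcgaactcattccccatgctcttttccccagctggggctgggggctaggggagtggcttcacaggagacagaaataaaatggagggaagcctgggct
Plin1, minus strand, chr7:79732905-79733026: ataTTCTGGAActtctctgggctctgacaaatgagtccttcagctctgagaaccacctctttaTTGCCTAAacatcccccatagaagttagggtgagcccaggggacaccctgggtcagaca
Pnpla2, plus strand, chr7:141454938-141455187: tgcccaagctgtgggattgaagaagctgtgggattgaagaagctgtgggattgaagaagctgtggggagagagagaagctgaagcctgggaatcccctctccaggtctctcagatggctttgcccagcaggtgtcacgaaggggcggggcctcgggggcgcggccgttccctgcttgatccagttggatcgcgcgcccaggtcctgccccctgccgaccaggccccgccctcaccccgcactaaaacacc
The 250 bases of Cidec held 2 matches and the 122 bases of Plin1 held 2, while the 250 bases of Pnpla2 held 0. The Plin4 window and both Lipe windows, of genes that rose in ERBOE lesions, also held 0. Over whole 250-base windows the loose motif occurred in 5 of the 12 member windows (41.7%) and in 12104 of all 32851 windows (36.8%), so its share among the members was near that of promoters in general. The direct repeat was in 0 of the 12 and in 11 of 32851 windows (0.0335%). A match describes letters only; these arrays measured no binding.

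Among the uptake genes, Fabp4, which carries fatty acids in the cytosol of adipocytes, read 6.45, 6.55 and 6.66 in ERBOE lesions and 4.78, 6.50 and 3.53 in PRCre lesions. It read 1.72, -1.86 and -3.85 in ERBOE eutopic endometrium and 2.04, -2.71 and -1.42 in PRCre eutopic endometrium. The SD of the 3 ERBOE lesion pools was 0.11, against 1.49 in PRCre lesions and 2.82 in ERBOE eutopic endometrium, where replicate 1 alone lay above 0. Uterus means were -2.36 ± 0.88 in ERBOE and -1.75 ± 0.17 in PRCre. Fabp4 had the largest lesion minus eutopic difference of the 10, 7.89 ± 1.26 in ERBOE (adjusted p = 0.0104) and 5.63 ± 1.26 in PRCre (adjusted p = 0.296).

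Lpl, the enzyme that frees fatty acids at the capillary wall, was well measured in every tissue. ERBOE lesions read 3.77, 4.25 and 4.80, and PRCre lesions 3.39, 3.96 and 1.64. ERBOE eutopic arrays read 1.85, 0.67 and 1.35 and PRCre eutopic arrays 1.06, 0.14 and -0.09. Lesions lay above eutopic endometrium without overlap in both genotypes, by 2.98 ± 0.52 in ERBOE (adjusted p = 0.0146) and 2.62 ± 0.52 in PRCre (adjusted p = 0.152), and the difference between those effects was 0.36 ± 0.73. Lpl also had the largest difference in favour of ERBOE among the 10 genes in uterus, where ERBOE pools read 1.73, 0.94 and 1.68 and PRCre pools 0.13, -0.31 and -0.05. Those groups did not overlap (6.19% of features were higher in ERBOE without overlap), and the difference of 1.52 ± 0.52 had an unadjusted p of 0.0102 and an adjusted p of 0.397 in limma.

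Cd36, the membrane fatty acid translocase, read 1.29, 1.30 and 1.92 in ERBOE lesions and 0.66, 1.16 and -1.04 in PRCre lesions. In eutopic endometrium it read -1.57, -3.04 and -2.79 in ERBOE and -1.41, -2.96 and -0.82 in PRCre, so PRCre lesion replicate 3 fell within the range of the PRCre eutopic pools. Its uterus levels spread widely, from -0.38 to -3.23 in PRCre and from -2.34 to -4.11 in ERBOE. The lesion minus eutopic difference was 3.97 ± 0.78 in ERBOE (adjusted p = 0.0299) and 1.99 ± 0.78 in PRCre. Acsl1, which activates fatty acids for storage or oxidation, read 3.36, 3.07 and 3.85 in ERBOE lesions and 2.00, 3.93 and 0.88 in PRCre lesions. Its eutopic values were 0.39, -0.29 and -0.16 in ERBOE and 0.21, -0.88 and -0.94 in PRCre, below every lesion array. The difference was 3.45 ± 0.60 in ERBOE (adjusted p = 0.0153) and 2.81 ± 0.60 in PRCre (adjusted p = 0.262).

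The lipases differed among themselves. Lipe, hormone-sensitive lipase, read -0.74, -1.02 and -0.71 in ERBOE lesions but -2.75, -1.33 and -2.97 in PRCre lesions, of which replicates 1 and 3 lay close to the eutopic pools. Eutopic endometrium read -3.67, -3.65 and -4.36 in ERBOE and -3.46, -2.84 and -3.43 in PRCre. Lipe therefore rose in ERBOE lesions, by 3.08 ± 0.42 (adjusted p = 0.0037). In PRCre the groups overlapped, and the difference was 0.89 ± 0.42, which did not pass with or without the replicate block. The PRCre lesion read above the eutopic array of the same replicate number in all 3 cases. These pools came from different animals, and the labels do not pair them. In uterus Lipe read -3.19, -3.48 and -4.45 in ERBOE, the last not well above background, and -3.02, -3.31 and -3.78 in PRCre.

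Pnpla2, which starts triglyceride breakdown in fat and in most other tissues, was measured on every array. It read 3.30, 3.24 and 4.02 in ERBOE lesions, 2.72, 3.93 and 2.20 in PRCre lesions, 2.29, 1.31 and 1.28 in ERBOE eutopic endometrium and 1.38, 2.15 and 2.70 in PRCre eutopic endometrium. The PRCre lesion and eutopic ranges overlapped. Its lesion minus eutopic difference of 1.89 ± 0.45 in ERBOE did not pass the threshold (adjusted p = 0.0871); it did with slide as a block (1.97, adjusted p = 0.0235), and the PRCre difference was 0.87 ± 0.45. Mgll, which takes the last fatty acid off, read 2.55, 3.03 and 2.86 in ERBOE lesions against 1.36, 1.68 and 1.71 in ERBOE eutopic endometrium, a difference of 1.23 ± 0.38 (adjusted p = 0.213). In PRCre it read 2.89, 2.66 and 1.56 in lesions and 2.17, 1.37 and 0.91 in eutopic endometrium (0.89 ± 0.38), with overlap between the groups. The lesion was higher at all 3 replicate numbers, which the labels do not pair. Pnpla2 and Mgll thus had the smallest lesion differences of the 10 in ERBOE.

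**Figure D2:**
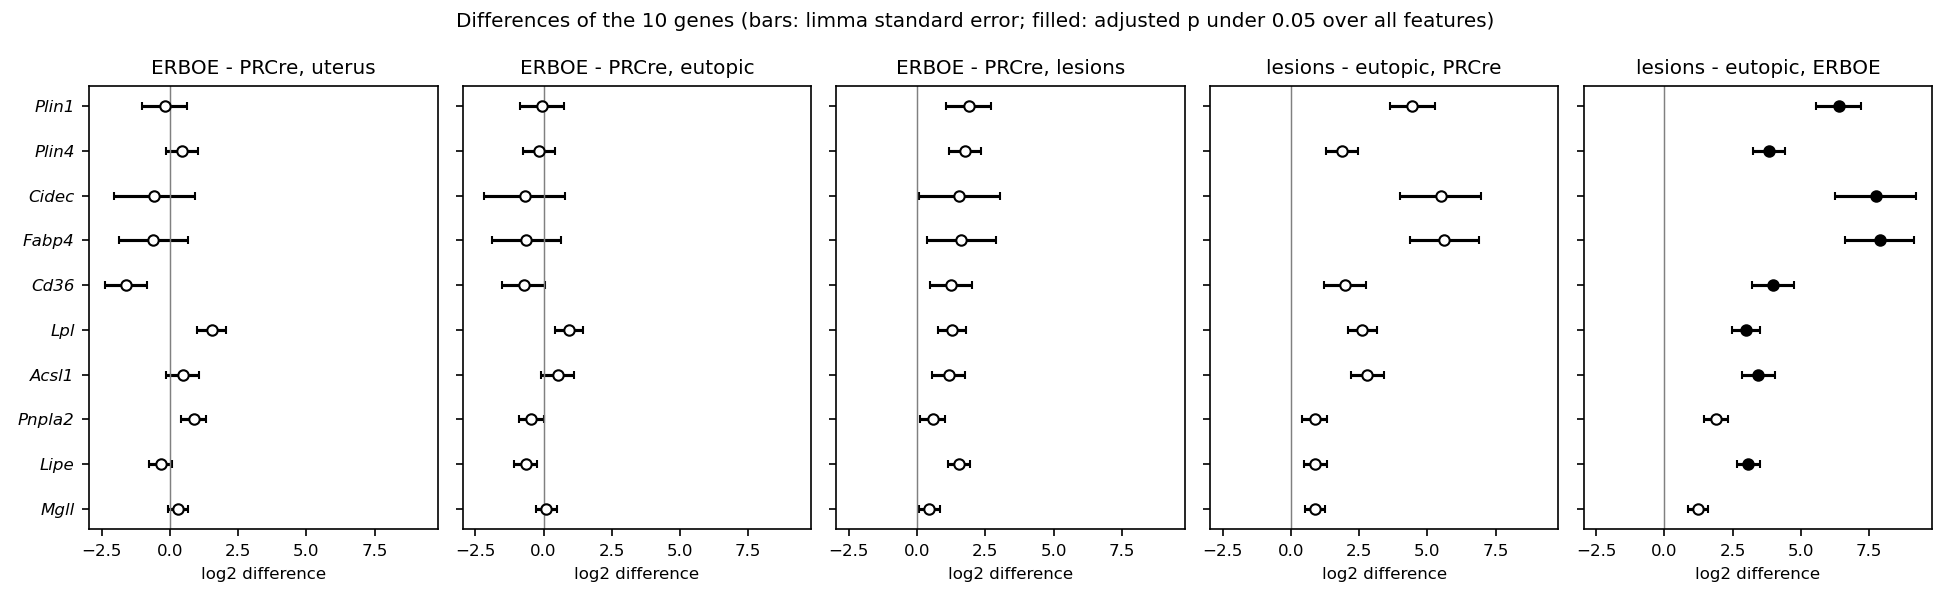
Difference of each of the 10 genes in 5 comparisons (x axis, log2 difference; bars, limma standard error; filled points, adjusted p under 0.05 over all 33469 features). Filled points appear in the ERBOE lesion minus eutopic panel alone, for 8 genes from 2.98 (Lpl) to 7.89 (Fabp4); in the lesion panel of ERBOE minus PRCre all 10 points are open and lie right of 0, between 0.45 (Mgll) and 1.89 (Plin1).

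The median difference of the 10 between lesions and eutopic endometrium was 3.63 in ERBOE, where the median of all features was -0.12, and 2.31 in PRCre, where it was -0.06. In PRCre, 0 of 10 passed in limma, as against 0.00299% of all features (1 feature), 8 had an unadjusted p under 0.05 (3.97% of features did) and 6 had lesion arrays wholly above eutopic arrays (2.9% of features). These 6 were Plin1, Plin4, Cidec, Fabp4, Lpl and Acsl1. Among arrays of the same slide the ERBOE median was 3.45 on slide 2 and 3.89 on slide 3, and the PRCre median was 3.61 on slide 2, the only slide with both PRCre groups; slide 1 held no eutopic array. The count of 8 in ERBOE depended on single pools: it was 5 without lesion replicate 1, 4 without lesion replicate 3, 4 without eutopic replicate 2, 3 without eutopic replicate 3 and 4 when the fit used the ERBOE lesion and eutopic arrays alone. Calls over all 33469 features moved as well. They were 206 in the main fit, 67 to 260 leaving out 1 array and 115 with those arrays alone, so the change in count is not particular to the 10 genes. Plin4 passed in all 28 alternatives, Lipe in the 27 that tested it, and the sign of every gene's ERBOE difference was the same in all of them. In PRCre, Lpl and Acsl1 passed without lesion replicate 3 (adjusted p = 0.0158 and 0.0322 in limma), a fit in which 51 features passed in all.

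Between the genotypes, all 10 genes read higher in ERBOE than in PRCre lesions, with 44.1% of all features above 0, but none passed the threshold (0% of features did). The median of the 10 was 1.40, and that of all features -0.05. Plin1 differed by 1.89 ± 0.82 (3.69-fold), Plin4 by 1.76 ± 0.58, Fabp4 by 1.62 ± 1.26 and Cidec by 1.55 ± 1.48. Lipe had the smallest unadjusted p, 0.0024, with a difference of 1.53 ± 0.42 and an adjusted p of 0.842 in limma, and 4 of the 10 had an unadjusted p under 0.05 (4.42% of features did). The other differences were 1.28 ± 0.52 for Lpl, 1.25 ± 0.78 for Cd36, 1.16 ± 0.60 for Acsl1, 0.57 ± 0.45 for Pnpla2 and 0.45 ± 0.38 for Mgll. Groups of 3 and 3 did not overlap for Plin1, Cd36 and Lipe (5.41% of features were higher without overlap), and an exact permutation test of 3 against 3 cannot give a p below 0.1.

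The PRCre lesion pools were spread more widely than the ERBOE lesion pools. Averaged over the 10 genes, the PRCre lesion arrays read 1.85, 3.15 and 0.97, and the ERBOE lesion arrays 3.17, 3.13 and 3.59. PRCre replicate 2 thus read like an ERBOE lesion, while replicates 1 and 3 read lower. The median of the 10 differences was 2.01 without PRCre lesion replicate 2 and 0.76 without PRCre lesion replicate 3, with no gene past the threshold in either fit. Within slides it was 2.16 on slide 1 and 1.08 on slide 2, and slide 3 held no PRCre lesion. The genotype difference in lesions minus that in eutopic endometrium was above 0 for all 10 (43.3% of features were), with a median of 1.94, and none passed in limma (2 had an unadjusted p under 0.05, as did 1.73% of features). The largest such differences were those of Fabp4 (2.26 ± 1.78), Cidec (2.25 ± 2.10) and Lipe (2.18 ± 0.59). The comparisons of lesions with eutopic endometrium and those between genotypes use the same arrays and are given side by side for that reason.

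Outside lesions the 10 genes showed no common direction between genotypes. In uterus 5 were higher and 5 lower in ERBOE, with 40.1% of all features higher, 0 passed in limma (1 had an unadjusted p under 0.05, as did 9.92% of features) and the median was 0.05, with -0.12 over all features. Lpl and Pnpla2 were higher in ERBOE without overlap, as were 6.19% of all features. Pnpla2 read 2.25, 2.14 and 1.31 in ERBOE uterus and 0.91, 1.18 and 1.00 in PRCre uterus. Cd36 had the most negative uterus difference, -1.60 ± 0.78, with overlapping groups. In eutopic endometrium 3 were higher and 7 lower (49% of features were higher), and 0 passed in limma. None of the 10 had an unadjusted p under 0.05 there (2.98% of features did), and Lipe was lower in ERBOE without overlap by -0.65 ± 0.42 (4.13% of features were lower without overlap). The median of the 10 was -0.31 there; it turned to 0.59 without PRCre eutopic replicate 1, and was 1.46 on slide 2 and -0.79 on slide 3.

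None of the 10 passed between the tissues outside lesions. Between eutopic endometrium of operated mice and uterus of unoperated mice, 9 of 10 were higher in PRCre (46.6% of features were) and 7 of 10 in ERBOE (57.3% of features), and 0 passed in limma in either (0% of features), with 1 in PRCre (6.7% of features) and 0 in ERBOE (3.29% of features) at an unadjusted p under 0.05. Pnpla2 in PRCre was higher without overlap (1.04 ± 0.45; 3.58% of features). Plin1 was above background in eutopic endometrium on 2 of 3 arrays per genotype and on none in uterus, and in ERBOE the bound was at least 1.30-fold higher (means -4.37 and -5.33, adjusted p = 1.00). It rests on ERBOE eutopic replicate 1, without which the difference in Plin1 was -0.03; the bound sets each uterus array at its dimmest probe well above background. No bound above 1 could be given for PRCre.

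The 2 eutopic arrays numbered 1 stood apart from the other eutopic arrays in the fat genes. Averaged over the 10 genes they read 0.16 in PRCre and 0.22 in ERBOE, while the other 4 eutopic arrays lay between -1.70 and -1.10 and the 6 uterus arrays between -1.59 and -1.21. Replicate 1 was the highest eutopic array of both genotypes for Fabp4 (2.04 and 1.72), Cidec (1.46 and 1.34), Plin1 (-2.71 and -2.40), Acsl1 (0.21 and 0.39) and Lpl (1.06 and 1.85). It was not the highest in both for the other 5 genes, among them Lipe (-3.46 and -3.67) and Mgll (2.17 and 1.36). Without ERBOE eutopic replicate 1, the lesion minus eutopic differences in ERBOE were 9.41 for Fabp4, 9.50 for Cidec and 7.37 for Plin1, and 8 of 10 genes passed. Without PRCre eutopic replicate 1, the PRCre differences were 7.00 for Fabp4, 6.96 for Cidec and 5.24 for Plin1, and 0 passed.

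Genes that mark adipocytes and are not among the 10 moved the same way. Adiponectin (Adipoq), a hormone made by adipocytes, had group means of 4.98 ± 0.35 in ERBOE lesions and 3.14 ± 1.41 in PRCre lesions, -3.03 ± 3.24 and -2.46 ± 2.91 in eutopic endometrium, and -4.69 ± 1.92 and -4.14 ± 0.93 in uterus (ERBOE and PRCre in each pair), where it was well above background on 2 and 1 of 3 arrays. In ERBOE lesions against eutopic endometrium, 15 of 15 adipocyte genes were higher (39.1% of features were), 9 passed (0.615% of features) and the median was 4.65. Slc7a10 of this list was well above background on 1 array of each eutopic group and on none in uterus. It was kept for testing only through the lesion arrays, so these counts describe the list and do not test it. Adipoq differed by 8.01 ± 1.54 (adjusted p = 0.0277), complement factor D (Cfd) by 7.65 ± 1.64 (adjusted p = 0.0524), carbonic anhydrase 3 (Car3) by 7.44 ± 1.25 (adjusted p = 0.0119) and resistin (Retn) by 7.40 ± 1.39 (adjusted p = 0.0241). In PRCre 12 of 15 were higher (41.7% of features were), 0 passed in limma (10 had an unadjusted p under 0.05, as did 3.97% of features) and the median was 2.72. Leptin (Lep) lay between -2.92 and -1.84 on all 18 arrays, with no group apart.

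The summed linear level of the 15 adipocyte genes, in units of the array's 75th percentile, was likewise higher in ERBOE lesions than in PRCre lesions by its median, and higher in lesions than in the other groups. It was 335 to 539 in ERBOE lesions and 80.5 to 337 in PRCre lesions, with PRCre replicate 2 the highest of its group. In eutopic endometrium it was 2.39 to 28.7 in ERBOE and 4.02 to 27.7 in PRCre, the highest value of each being replicate 1, and in uterus 2.91 to 4.12 and 2.26 to 5.56. The 10 genes summed to 196 to 256 in ERBOE lesions, 36.6 to 207 in PRCre lesions, 9.54 to 20.7 and 11.5 to 19.7 in eutopic endometrium, and 10.7 to 13.3 and 7.10 to 8.71 in uterus. All 15 adipocyte genes were well above background on every lesion array, and 11 or 12 of them on the uterus arrays. The part of adipose tissue carried with the lesions in the results on the 10 genes was not tested. In such bulk RNA, more cells of a type and more RNA per cell cannot be told apart.

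**Figure D3:**
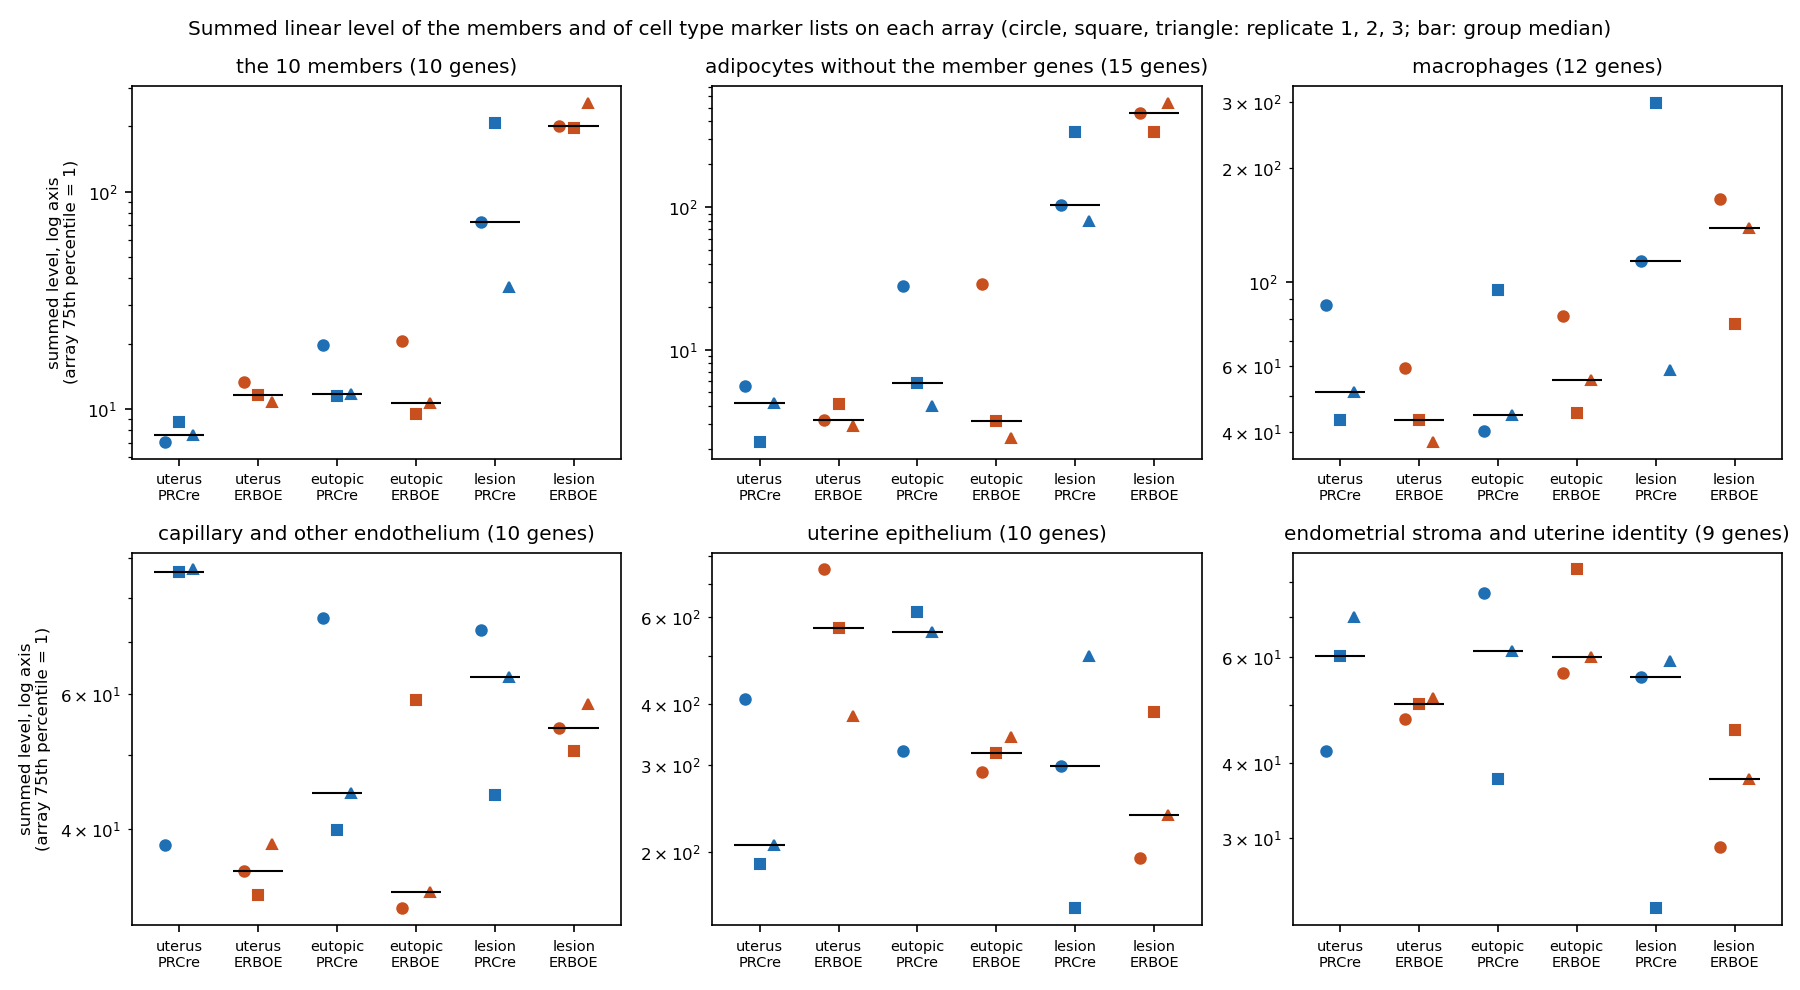
Summed linear level (y axis, log scale, array 75th percentile = 1) of the 10 genes and of 5 cell type marker lists on each array, by group (x axis; symbols as for the levels by array; bar, group median). The 10 genes and the 15 adipocyte genes both read higher in lesions than in eutopic endometrium, and both read highest on replicate 1 among the eutopic arrays of each genotype. The group medians of the uterine epithelium and uterine identity lists were lower in lesions than in eutopic endometrium of the same genotype.

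Markers of other cell types moved less. Between lesions and eutopic endometrium, 10.5% of all features in ERBOE and 3.97% in PRCre had an unadjusted p under 0.05 in limma. All 12 macrophage genes read higher in lesions than in eutopic endometrium in both genotypes, by a median of 1.15 in ERBOE and 1.14 in PRCre, and 0 passed in limma (6 and 7 at an unadjusted p under 0.05); their sum was highest, 298, on PRCre lesion replicate 2, the PRCre lesion array with the highest level of the 10 genes, against 58.5 to 166 on the other lesion arrays. Of 10 endothelial genes, 10 were higher in ERBOE (median 0.57) and 7 in PRCre (0.30), and 0 passed in limma (2 and 1 unadjusted). Brown adipocyte genes did not follow: Ucp1 was not well above background on the 3 arrays needed for a test, 2 of the other 7 were higher in ERBOE and 1 in PRCre (medians -0.11 and -0.31), with 0 past the threshold in limma (2 and 1 unadjusted). The uterine identity list had 0 of 9 higher in either genotype (medians -0.79 in ERBOE and -0.32 in PRCre; 2 and 1 unadjusted, 0 called in limma). Uterine epithelium had 3 of 10 higher in ERBOE and 0 of 10 in PRCre (medians -0.27 and -0.70), smooth muscle 0 and 1 of 8 (-0.36 and -0.59), mesothelium 5 and 2 of 7 (0.03 and -0.20) and skeletal muscle 3 and 2 of 7 (-0.17 and -0.15), with 0 called in limma in each; at an unadjusted p under 0.05 these counts were 1 and 1, 0 and 0, 2 and 0, and 2 and 1. Myh1, Myh2 and Myh4 of skeletal muscle and Muc16 of mesothelium were too dim to test.

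The rest of the lipid pathway was read from 6 lists of genes, against the same 0.615% of features called in ERBOE lesions minus eutopic endometrium. At an unadjusted p under 0.05 in limma the share was 10.5%. Of 17 droplet and lipolysis partners 14 were higher (median 0.96) and 5 rose: the beta-3 adrenergic receptor Adrb3, which triggers lipolysis, by 5.04 ± 0.73 (adjusted p = 0.0059), Pnpla3 by 3.49 ± 0.61, the protein kinase A subunit Prkar2b by 2.63 ± 0.40, G0s2 by 2.40 ± 0.43 and Abhd5 by 1.49 (adjusted p = 0.0330). G0s2 inhibits, and Abhd5 activates, the lipase encoded by Pnpla2. Pnpla2 itself was higher by 1.89 ± 0.45 without overlap and did not pass (adjusted p = 0.0871 in limma). Adrb3, G0s2, Aqp7 and Cidea, like Pck1, Pparg and Cebpa of the lists below, also stand in the adipocyte list. Cidea stands in the brown adipocyte list as well. Among the perilipins outside the 10 genes, Plin2, found on droplets of most cells, differed by 0.80 ± 0.26 and Plin3 by -0.20 ± 0.23, and neither passed.

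Triglyceride synthesis had 11 of 12 genes higher (median 1.24) and 4 that rose: Pck1, which makes glycerol backbones, by 4.65 ± 0.91 (adjusted p = 0.0295), Gpd1 by 4.02 ± 0.67, the acyltransferase Dgat1 by 1.44 and Agpat2 by 1.14 (adjusted p = 0.0224). Fatty acid synthesis had 10 of 12 higher (median 1.02) and 3 that rose: the desaturase Scd1 by 5.67 ± 0.60 (adjusted p = 0.00085), malic enzyme Me1 by 2.72 ± 0.28 (adjusted p = 0.00057) and Acly by 1.09 (adjusted p = 0.0477). All 10 adipogenic regulators were higher (median 0.99), and Ebf2 (4.19 ± 0.64, well above background on 1 of 3 ERBOE eutopic arrays) and Pparg (2.90 ± 0.59, adjusted p = 0.0392), the master regulator of fat cell differentiation, rose. Ebf2 was not well above background on any PRCre eutopic or ERBOE uterus array. It was kept for testing through the lesion arrays, where it is high, so its rise is a description and no separate support. By contrast, uptake and activation genes had a median of 0.18 with 11 of 15 higher and 1 that rose, the caveolin gene Cav2 (1.23 ± 0.26, adjusted p = 0.0446). Fatty acid oxidation had a median of 0.21, 10 of 13 higher and 0 called in limma (5 unadjusted).

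In PRCre lesions against eutopic endometrium none of these lists had a gene past the threshold in limma. Medians were 0.32 for droplet partners (10 of 17 higher, 4 at an unadjusted p under 0.05), 0.28 for uptake (13 of 15, 3), 0.36 for triglyceride synthesis (9 of 12, 2), 0.23 for fatty acid synthesis (9 of 12, 3), 0.005 for oxidation (7 of 13, 0) and 0.19 for adipogenic regulators (6 of 10, 3). Scd1 was nearest, at 3.96 ± 0.60 with an adjusted p of 0.0737. Adrb3 differed by 3.19 ± 0.73. Ebf2, not well above background on any PRCre eutopic array, was at least 2.95-fold higher in PRCre lesions (means -3.12 and -6.07, adjusted p = 0.279).

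Between ERBOE and PRCre lesions, fatty acid synthesis genes were higher for 11 of 12 with a median of 1.07, and 9 of the 12 did not overlap (5.41% of features higher without overlap), yet 0 passed in limma (smallest adjusted p 0.335; 9 had an unadjusted p under 0.05). Scd1 differed by 2.22 ± 0.60, fatty acid synthase (Fasn) by 1.65 ± 0.47 and Acaca by 1.62 ± 0.45. This list was also higher in ERBOE for 11 of 12 genes in uterus (median 0.60, 4 without overlap and 4 unadjusted) and 9 of 12 in eutopic endometrium (median 0.37, 0 unadjusted), with 0 called in limma, whereas the 10 droplet and lipolysis genes had medians of 0.05 and -0.31 there. Triglyceride synthesis was higher for 12 of 12 in ERBOE lesions (median 0.70), droplet partners for 12 of 17 (0.57), adipogenic regulators for 7 of 10 (0.39), uptake for 11 of 15 (0.19), oxidation for 8 of 13 (0.09) and the adipocyte genes for 14 of 15 (1.57), with 0 called in limma and 2, 8, 1, 1, 0 and 4 at an unadjusted p under 0.05. G0s2 differed by 1.76 ± 0.43 (adjusted p = 0.763).

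**Figure D4:**
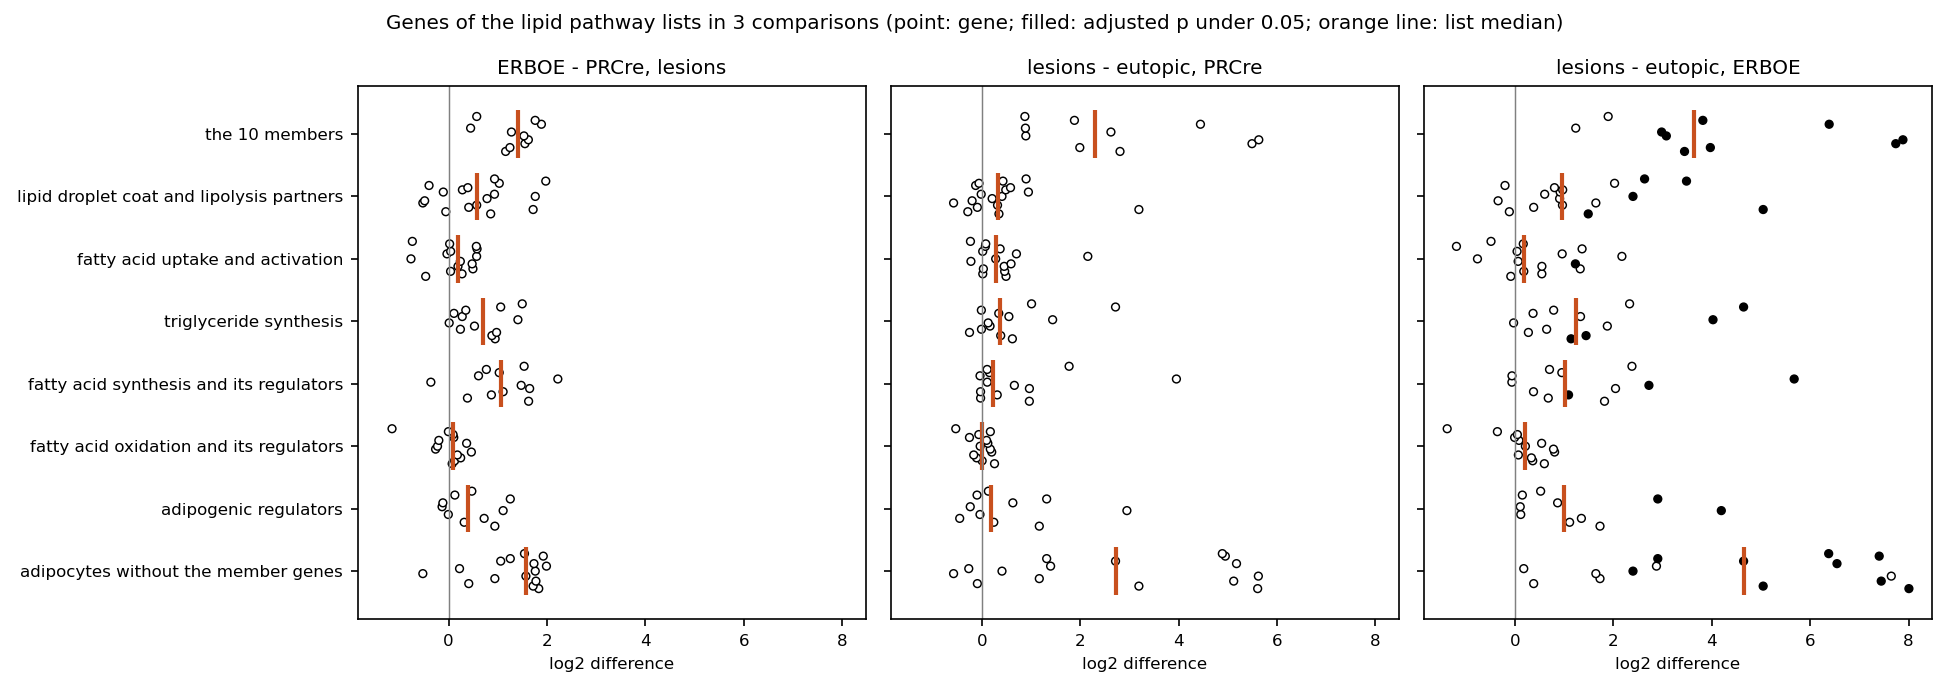
Log2 difference (x axis) of each tested gene of the 10-gene set, of 6 lipid pathway lists and of the adipocyte list (rows) in 3 comparisons (filled, adjusted p under 0.05; orange line, list median). In ERBOE lesions minus eutopic endometrium the 10 genes have a median of 3.63 and the adipocyte genes 4.65, while the medians of the pathway lists lie between 0.18 and 1.24.

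Over the 18 arrays the 10 genes ran closely together: the Pearson correlation of each with the mean of the other 9, after scaling each to unit SD, was between 0.84 for Mgll and 0.98 for Plin1. Of 17193 other symbols, those most like the mean of the 10 were Adrb3 (r = 0.985), Scd1 (0.983), Slc7a10 (0.977), Wfdc21 (0.974), Apoc1 (0.973), Orm2 (0.971), Serpina3c (0.968), Flacc1 (0.967), Mrap (0.964) and Nat8l (0.959). These correlations describe 18 arrays in 6 groups that share the lesion step, so they carry no p. The remaining probes of the 10 genes read the same way: in ERBOE lesions minus eutopic endometrium the second Fabp4 probe gave 7.92 ± 1.15, the second Acsl1 probe 4.22 ± 0.61, the other Lpl probes 3.08 ± 0.51 and 3.11 ± 0.71 and the second Mgll probe 1.55 ± 0.40. Of these, the second Mgll probe (adjusted p = 0.117) and the Lpl probe at 3.11 (adjusted p = 0.0715) did not pass.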

How the data were processed

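RNA was hybridised to single-colour (Cy3) Agilent arrays and scanned with Feature Extraction 11.0.1.1 (design build mm9), per the file headers. The deposited intensity used was the authors' processed signal, already background-corrected by the scanner software. The deposited value table holds log2 values whose medians per array lie between -0.15 and 0.36; set against the scanner values centred per probe, its columns correlated at 0.993 to 0.997, so its log2 scale and direction are known and its centring is that of each probe, by a baseline that is not given. It served as an alternative.

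Control spots and spots flagged as outliers were left out, spots of a probe were averaged, log2 signals were reduced by the array's 75th percentile, and probes well above background on at least 3 arrays were kept. Accessions were matched to RefSeq symbols (GRCm38.p6). limma 3.58.1 in R 4.3.3 fitted a mean per group over all 18 arrays (Benjamini-Hochberg, 2-sided, threshold 0.05, 8 comparisons); the code was tested on simulated data. Alternatives were normexp (offset 50, median spot and background signals, the mean signal not being used here), quantile normalization, other filters, slide and replicate blocks, array weights, other probe summaries, fewer groups and leaving out each array; the median of the 10 genes under these was added after seeing the data. The members and lists were chosen with earlier results of these data known. Named are the 10 members, up to 4 genes per list with the largest differences (Abhd5, Dgat1, Agpat2, Acly, Lep, Ucp1, Plin2 and Plin3, and the rank of Lipe, were singled out after their values were seen), and the 10 symbols most correlated with the members. Same-numbered uterus arrays deviated together (r = 0.39, 0.30 and 0.43) and shared slides, as did PRCre lesion and eutopic arrays without sharing slides (0.32, 0.22 and 0.13). These values were above the rule of 0.1, and the replicate number was used as a block in an alternative fit. The main fit paired no arrays, and the labels give no reason for a pairing.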

Additional observations from a re-analysis of the deposited data

Results flagged for a closer look

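Lipe went opposite ways between genotypes in the tissues of operated mice. Opposite directions were not particular to it: 7 of the 10 genes were lower in ERBOE in eutopic endometrium, and all 10 were higher in ERBOE lesions. Lipe was the only one of the 10 whose groups did not overlap in either tissue. In lesions all 3 ERBOE pools read above all 3 PRCre pools, by 1.53 ± 0.42 log2 units (5.41% of features were higher without overlap). In eutopic endometrium all 3 ERBOE pools read below all 3 PRCre pools, by -0.65 ± 0.42 (4.13% of features were lower without overlap). The eutopic difference had an unadjusted p of 0.140 in limma, and was -0.25 on slide 2 and -0.85 on slide 3. The difference between those effects was 2.18 ± 0.59, with an unadjusted p of 0.0023 and an adjusted p of 1.00 in limma over all features, so it did not pass. Neither genotype difference passed on its own.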

How the results depend on the processing

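Directions of the 10 lesion minus eutopic differences in both genotypes, and of the 10 genotype differences in lesions, were the same in every alternative run. Counts of calls were not. In ERBOE lesions minus eutopic endometrium the features called were 206 as reported, 122 with probes required above background on all 18 arrays, 1215 with array weights and 115 with only the groups compared, and 67 to 260 leaving out 1 array; members called were 8, then 5 (of the 7 that filter keeps), 10 with array weights, 4 with only the groups compared, and 3 to 9 leaving out 1 array. In PRCre the features called were 1, then 7 with normexp, 0 with all 18 arrays required, 29 with array weights, 0 with only the groups compared and 1 to 51 leaving out 1 array (51 without lesion replicate 3); members called were 0, then 1 with normexp (Plin1, 2.90, adjusted p = 0.0440), 2 with array weights (Lpl and Acsl1) and 0 to 2 leaving out 1 array. Features called between genotypes were 0 in lesions, then 2 with normexp, 1 with all 18 arrays required, 6 with array weights and 0 to 5 leaving out 1 array; 0 in uterus, then 14 with array weights and 0 to 16 leaving out 1 array; and 0 to 3 in eutopic endometrium leaving out 1 array. Eutopic endometrium minus uterus in PRCre called 0, then 1 with normexp and 0 to 8 leaving out 1 array. The cause was not tested.

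With the replicate block, 207 features and 8 members were called in ERBOE lesions minus eutopic endometrium, and no count of calls moved by over 1.5 times. Normexp moved the all-feature median of that comparison from -0.12 to 0.04 and Plin1 from 6.39 to 4.64. Plin1 in uterus and in 1 array of each eutopic group was not well above background, so its differences there are limited by signal over background.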

Other observations

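Several fatty acid synthesis genes separated the genotypes in lesions without overlap. Fatty acid synthase (Fasn) read 6.76, 6.95 and 6.83 in ERBOE lesions and 5.19, 5.12 and 5.29 in PRCre lesions, and Acaca, which makes its malonyl-CoA substrate, read 4.05, 4.35 and 4.22 against 2.45, 2.69 and 2.60. Both genes read lower on PRCre replicate 2 than on every ERBOE pool. That array had an adipocyte sum of 337 and a sum over the 10 members of 207. The ERBOE lesion ranges were 335 to 539 and 196 to 256. The part of adipose tissue in the genotype differences of Fasn and Acaca was not tested. The summed level of the 12 fatty acid synthesis genes was 242 to 275 in ERBOE lesions and 97.6 to 117 in PRCre lesions, and 104 on PRCre replicate 2. Scd1 was different: it read 4.51, 4.42 and 4.79 in ERBOE lesions and 2.37, 3.70 and 1.00 in PRCre lesions, with replicate 2 again the highest. These genes did not pass between genotypes in lesions (Fasn adjusted p = 0.884, Acaca 0.869 and Scd1 0.842 in limma), and this contrast was noticed after the values were seen.

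The spread between pools differed among the 10 genes: the SD within groups, pooled over the 6 groups, was 1.99 for Cidec, 1.68 for Fabp4 and 1.09 for Plin1 but 0.53 for Lipe and 0.47 for Mgll.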
